A study of Mus musculus with 6 samples.

Results

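Genes of cholesterol synthesis, uptake and efflux were followed in mouse T cells that had been turned into regulatory T cells (Tregs) in culture in the presence of DEL-1-Fc or of Fc alone. The set was chosen by symbol. It holds 19 enzymes of sterol and isoprenoid synthesis, 5 genes that control the SREBP transcription factors, 3 genes of uptake control, sterol transport and storage, and 3 genes of the liver X receptor (LXR) and efflux. All 30 genes were found among the 39179 gene identifiers of each count file, and all 30 were among the 14928 genes kept by the low-count filter.

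Naive CD4+ cells had been taken from the spleen of 6-week-old C57BL/6 animals of wild type genotype. Both groups were kept for 3 days on coated anti-CD3 (2 µg/ml, the first letter of this unit being misprinted in the labels) and with anti-CD28 (1 µg/ml), TGF-β1 (5 ng/ml) and IL-2 (40 ng/ml). In 1 group the medium also held DEL-1-Fc, in which DEL-1, a secreted protein that binds integrins, is fused to an immunoglobulin Fc, and in the control group it held Fc. Each group had 3 polyA-selected RNA libraries, and the labels do not say whether these came from separate animals or cultures, so p-values measure only the spread between libraries, which may be technical.

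Cells build cholesterol from acetyl-CoA through the mevalonate arm, which also supplies isoprenoids for protein prenylation, and then through squalene and lanosterol in the sterol arm. When membrane sterol is low, Scap carries the SREBP proteins (genes Srebf1 and Srebf2) to the Golgi for cleavage, and they then activate synthesis and uptake genes. Insig proteins hold that complex back when sterol is plentiful, while LXR senses oxysterols and activates the efflux pumps. Activated T cells need sterol for membrane growth, and mevalonate products are known to matter for Treg function.

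The libraries held 33364166 to 61967687 counts, with DEL-1-Fc replicate 1 the shallowest and each of the others at 55236703 or more. Of all genes kept, 12.6% were called (edgeR quasi-likelihood test, Benjamini-Hochberg adjusted p under 0.05), 956 higher and 928 lower in DEL-1-Fc. That count of 1884 ran from 901 without Fc replicate 1 to 3003 without DEL-1-Fc replicate 1. The T cell and Treg markers Cd3e, Cd4, Foxp3, Il2ra, Ctla4 and Ikzf2 were all detected, with a summed level of 4100 to 4470 CPM (counts scaled to a common library size) in Fc and 4110 to 4680 in DEL-1-Fc, most of it Il2ra. Foxp3 was called higher (log2 fold change 0.54, adjusted p = 0.0166) and Ctla4 lower (-0.30, 0.031), and the other 4 were not called. Of 7 macrophage and dendritic cell markers 1 passed the filter, and their sum was 0.346 to 0.555 CPM in Fc and 0.396 to 0.742 in DEL-1-Fc. Of the B cell markers, Ighm was at 360 to 381 CPM in Fc and 447 to 478 in DEL-1-Fc and was called higher (0.32, adjusted p = 0.0124), while Cd79a, Cd79b and Ms4a1 each reached at most 2.41 CPM. The CD8 markers summed to 10.1 to 10.4 CPM in Fc and 11.9 to 12.8 in DEL-1-Fc, where Cd8a was called higher (0.78, adjusted p = 0.00607) and Cd8b1 was not called (0.04, 0.846). The NK markers summed to 192 to 218 CPM in Fc and 99.6 to 113 in DEL-1-Fc. Nearly all of that was Eomes, which T cells also express and which was called lower (-0.93, adjusted p = 0.00014), and Ncr1 was at 0 in every library. The erythroid markers summed to at most 0.548 CPM in any of the 6 libraries. The part of these markers in the results below was not tested.

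Of the 30 sterol genes, 1 was called higher and 3 were called lower, and 26 were not called. Over all genes kept, 6.4% were called higher and 6.22% lower, so the share of sterol genes called, 13.3%, was near that of all genes. The efflux gene Abcg1 rose, and the synthesis genes Ggps1 and Dhcr7 and the regulator Srebf2 fell. The median log2 fold change of the 30 genes, DEL-1-Fc over Fc, was -0.03, against 0.01 for all genes. In 5 sterol genes every DEL-1-Fc library lay above every Fc library, and in 8 every one lay below, while 17 overlapped. Such separation was seen in 17.3% of all genes upward and 17.5% downward. Abcg1 had the only absolute log2 fold change of 0.5 or more. In these bulk libraries fewer cells that express a gene and less RNA per cell cannot be told apart.

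**Figure D1:**
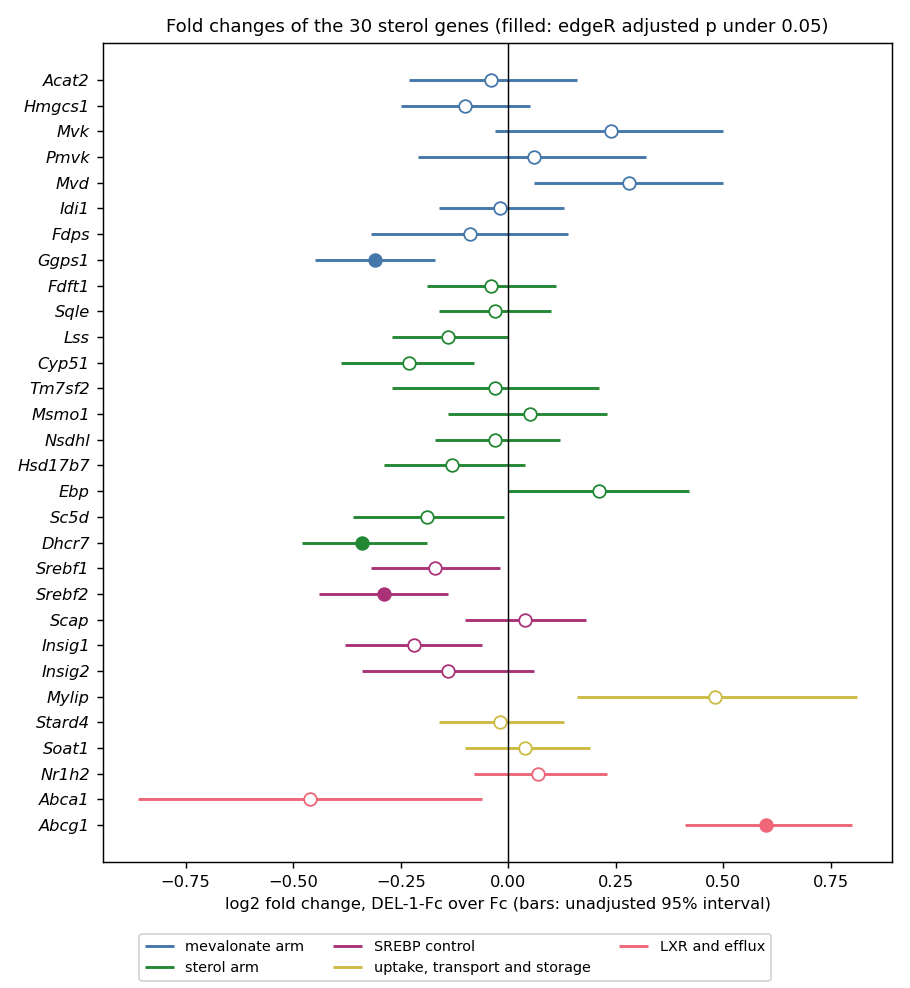
Log2 fold change of DEL-1-Fc over Fc for the 30 genes in pathway order (points, from 3 against 3 libraries), with unadjusted 95% confidence intervals (bars) coloured by role. Filled points passed the edgeR test, and these are Ggps1, Dhcr7, Srebf2 and Abcg1.

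Per kilobase of exon, the genes spanned a wide range of levels in the Fc libraries. Idi1, the isopentenyl diphosphate isomerase, was highest at 127 CPM per kb, above 97.6% of the genes kept. Next came the lanosterol demethylase gene Cyp51 at 99.2, Srebf2 at 85.6 and the HMG-CoA synthase gene Hmgcs1 at 79.6 CPM per kb. The lowest were Mylip at 1.07 CPM per kb and the efflux pump gene Abca1 at 0.516 CPM per kb, which is the 20.3 percentile. The other pump gene, Abcg1, was at 3.95 CPM per kb in Fc and 6.01 in DEL-1-Fc. For Acat2, Fdft1 and Idi1, from 32.0% to 50.5% of the 31-base words of the transcript also occur in other genes, so their levels are uncertain. Reads of Fdft1, Cyp51, Lss, Scap and Srebf1 could also come from a gene on the other strand that overlaps their exons, and those of Tm7sf2 from Vps51, which overlaps it by 532 bases on the same strand.

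**Figure D2:**
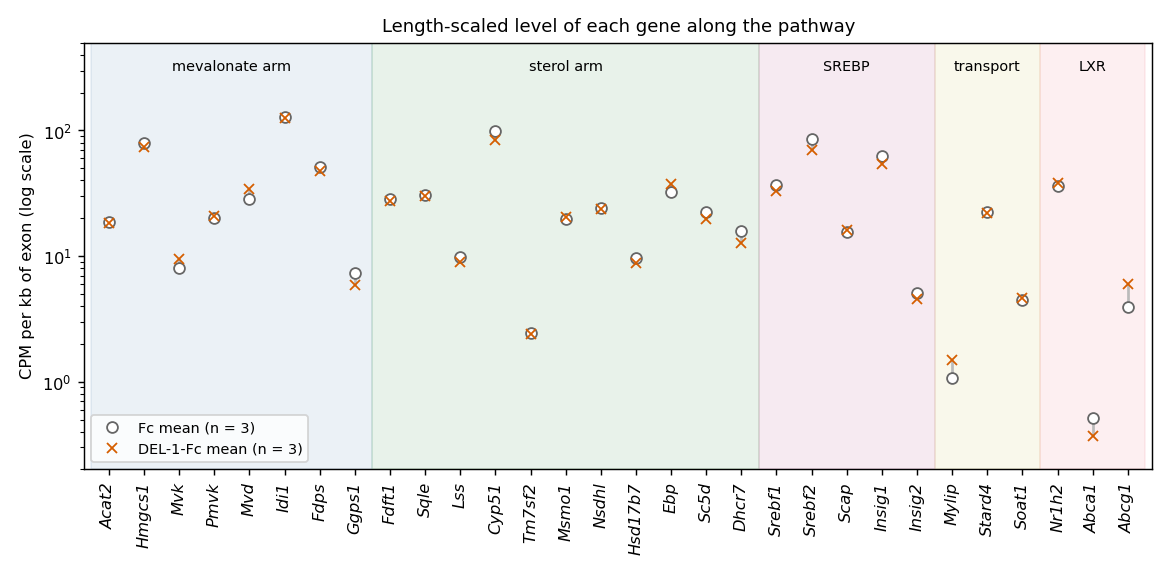
Mean level of each gene in CPM per kb of exon (log scale, n = 3 libraries per group), with open circles for Fc and crosses for DEL-1-Fc, along the pathway. The highest is Idi1 at 127 CPM per kb in Fc and the lowest Abca1 at 0.516.

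Of the 8 genes of the mevalonate arm, 1 was lower, 0 were higher and 7 were not called. The share called was 12.5%, against 12.6% of all genes kept. Ggps1, which makes geranylgeranyl diphosphate for protein prenylation, lies at chr13:14050659-14063488 on the minus strand (GRCm38, ENSMUSG00000021302). It measured 34.4, 35.4 and 34.3 CPM in the Fc libraries and 27.6, 29.0 and 27.3 CPM in the DEL-1-Fc libraries. All DEL-1-Fc libraries were lower and the libraries of each group lay close together. Ggps1 fell by a factor of 1.24 (-0.31 on the log2 scale, SE 0.0624, edgeR adjusted p = 0.0126). Without Fc replicate 1, 2 or 3 the fall did not pass, with adjusted p = 0.0608, 0.0744 and 0.0666 and log2 fold changes of -0.32, -0.30 and -0.32. Of the 31-base words of Ggps1, 17.6% also occur elsewhere, and 257 of its exon bases lie opposite Arid4b on the other strand. Arid4b itself was not called (log2 fold change -0.05).

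The enzymes ahead of Ggps1 were not called. Hmgcs1 measured 351, 367 and 378 CPM in the Fc libraries, against 329, 336 and 361 CPM with DEL-1-Fc (log2 fold change -0.10, adjusted p = 0.387), and its groups overlapped. Idi1 measured 455, 429 and 449 CPM in the Fc libraries, against 435, 422 and 458 CPM with DEL-1-Fc, with almost coincident groups (log2 fold change -0.02, unadjusted 95% interval -0.16 to 0.13). The decarboxylase gene Mvd measured 49.6, 53.0 and 55.1 CPM in the Fc libraries, against 73.5, 56.8 and 61.0 CPM with DEL-1-Fc. Every DEL-1-Fc library was above Fc, with replicate 1 far above the others, and the log2 fold change of 0.28 did not pass (SE 0.0972, adjusted p = 0.103). Without DEL-1-Fc replicate 2 it did, at 0.35 (adjusted p = 0.044), whereas without replicate 1 it was 0.16 and did not pass (adjusted p = 0.077). Mevalonate kinase, Mvk, had separated groups as well, at 19.9 to 22.7 CPM in Fc and 23 to 30.4 CPM in DEL-1-Fc (log2 fold change 0.24, adjusted p = 0.229), and its log2 fold change was 0.09 when DEL-1-Fc replicate 1 was left out. Farnesyl diphosphate synthase, Fdps, was at 209, 215 and 221 CPM in the Fc libraries, against 234, 173 and 199 CPM with DEL-1-Fc, where replicate 1 was above and the other replicates below all Fc libraries. Its log2 fold change of -0.09 did not pass (adjusted p = 0.6). Leaving out DEL-1-Fc replicate 1 gave -0.21, which passed (adjusted p = 0.039). Without that library 3003 genes were called, against 1884 with all libraries. Leaving out any other library gave an adjusted p of 0.67 to 0.959 for Fdps. The thiolase Acat2 and phosphomevalonate kinase Pmvk measured -0.04 and 0.06 on the log2 scale, with overlapping groups.

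Of the 11 genes of the sterol arm, 1 was lower, 0 were higher and 10 were not called. The share called was 9.09%, against 12.6% of all genes kept. Dhcr7 encodes the reductase of the last step to cholesterol and lies at chr7:143823145-143848410 on the plus strand (ENSMUSG00000058454). It measured 91.0, 97.6 and 89.2 CPM in the Fc libraries and 71.5, 77.1 and 71.3 CPM in the DEL-1-Fc libraries. The groups were clearly apart, and replicate 2 was the highest library in each. Dhcr7 fell by a factor of 1.26 (-0.34 on the log2 scale, SE 0.0644, adjusted p = 0.00986). Without Fc replicate 2 the fall was -0.30 and did not pass (adjusted p = 0.0652).

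Cyp51, which demethylates lanosterol, measured 445, 428 and 440 CPM in the Fc libraries, against 394, 348 and 375 CPM with DEL-1-Fc. All DEL-1-Fc libraries were below Fc, and the log2 fold change of -0.23 narrowly missed the threshold (SE 0.0679, adjusted p = 0.0566). It passed without DEL-1-Fc replicate 1, at -0.28 (adjusted p = 0.00519), where 3003 genes were called, against 1884 with all libraries. Cyp51 did not pass when any other library was left out (adjusted p of 0.115 to 0.209). The squalene epoxidase gene Sqle, a control point of the arm, was nearly the same in the groups, at 171, 167 and 175 CPM in the Fc libraries, against 170, 160 and 172 CPM with DEL-1-Fc (log2 fold change -0.03, unadjusted 95% interval -0.16 to 0.10). Lanosterol synthase, Lss, was below Fc in every DEL-1-Fc library without passing (log2 fold change -0.14, adjusted p = 0.173), and the isomerase Ebp was above Fc in every one without passing (0.21, adjusted p = 0.183, and 0.10 when DEL-1-Fc replicate 1 was left out). Squalene synthase Fdft1, the sterol reductase Tm7sf2, the demethylation enzymes Msmo1, Nsdhl and Hsd17b7 and the desaturase Sc5d had overlapping groups, with log2 fold changes from -0.19 for Sc5d to 0.05 for Msmo1. Leaving out DEL-1-Fc replicate 1 gave -0.12 for Sc5d and -0.06 for Hsd17b7, which was at -0.13 with all libraries. Over both arms, the 17 enzymes not called had log2 fold changes from -0.23 to 0.28, and their unadjusted 95% intervals reached from 0.765-fold to 1.41-fold.

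**Figure D3:**
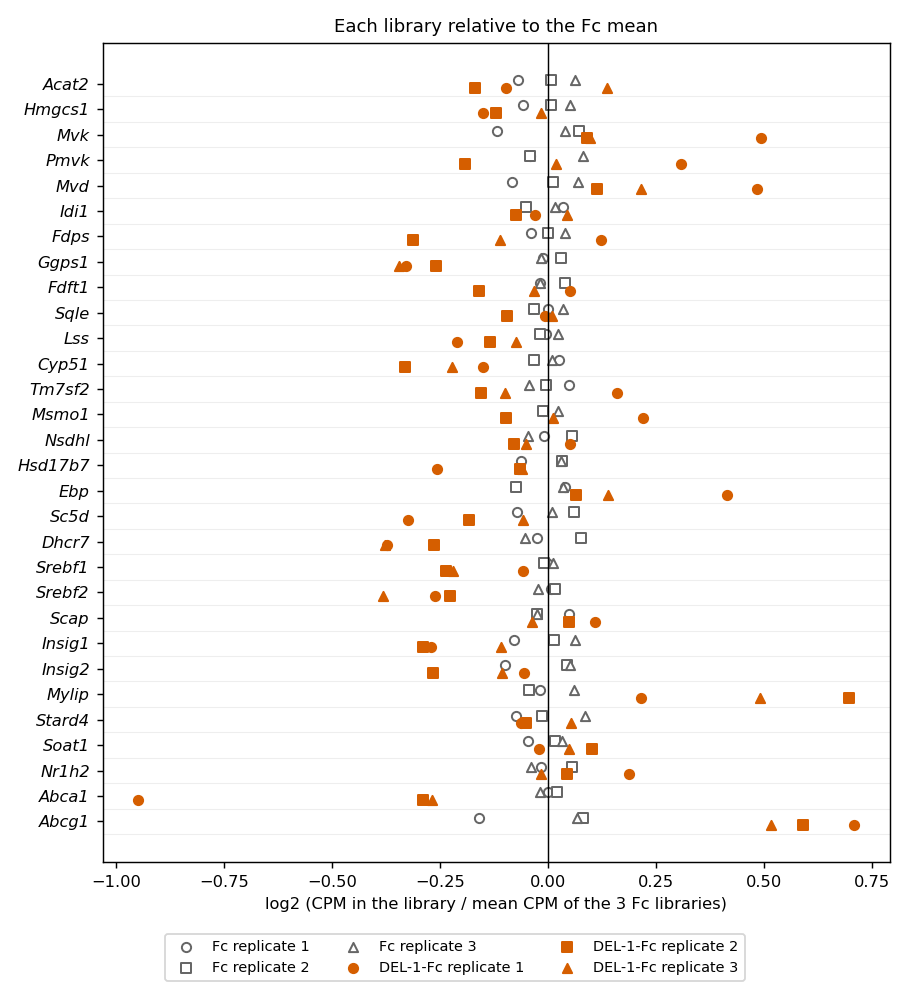
Each library's CPM as a log2 ratio to the mean of the 3 Fc libraries, for the 30 genes in pathway order, with open grey symbols for Fc and filled orange symbols for DEL-1-Fc. DEL-1-Fc replicate 1 (filled circles) stands apart for Mvk, Pmvk, Mvd, Ebp and Abca1, while all DEL-1-Fc libraries lie together away from Fc for Ggps1, Dhcr7 and Abcg1.

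DEL-1-Fc replicate 1 lay above both other DEL-1-Fc libraries in 15 of the 30 genes and below both in 8. Its log2 distance from the mean of those libraries was 0.39 for Mvk and for Pmvk, 0.33 for Fdps, 0.32 for Mvd and 0.31 for Ebp, and it was -0.58 for Abca1 and -0.34 for Mylip. Pmvk has the shortest exon total of the set at 1713 bases and Abca1 one of the longest at 10363 bases. Across the 30 genes this distance had a Spearman rho of -0.44 with exon length, and across 14757 genes -0.31. The log2 fold change of DEL-1-Fc over Fc had a rho with exon length of -0.36 across the 30 genes and -0.15 across all 14757. These points share libraries and their depth, and the part of transcript length in the results was not tested.

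Among the 5 SREBP control genes, 1 was lower, 0 were higher and 4 were not called. That 1 call is 20% of this short list, against 12.6% of all genes kept. Srebf2 encodes the SREBP that chiefly drives cholesterol synthesis and lies at chr15:82147181-82205379 on the plus strand (ENSMUSG00000022463). It measured 618, 622 and 605 CPM in the Fc libraries, against 513, 525 and 472 CPM with DEL-1-Fc. The lowest Fc library stood well above the highest DEL-1-Fc library. Srebf2 fell by a factor of 1.22 (-0.29 on the log2 scale, SE 0.0672, adjusted p = 0.024). The fall did not pass without Fc replicate 1, 2 or 3 (adjusted p = 0.113, 0.115 and 0.0901, at -0.29, -0.28 and -0.30) or without DEL-1-Fc replicate 3 (0.072, at -0.24).

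Srebf1, whose product mainly drives fatty acid synthesis, measured 207, 206 and 209 CPM in the Fc libraries, against 199, 176 and 178 CPM with DEL-1-Fc. All DEL-1-Fc libraries were below Fc, replicate 1 only slightly, and the log2 fold change of -0.17 did not pass (adjusted p = 0.137). Without DEL-1-Fc replicate 1 it was -0.23 and passed (adjusted p = 0.0051), where 3003 genes were called, against 1884 with all libraries. Srebf1 did not pass when any other library was left out (adjusted p of 0.239 to 0.328). Insig1, both an SREBP target and the protein that retains SREBP in the endoplasmic reticulum, measured 184, 196 and 203 CPM in the Fc libraries, against 161, 159 and 180 CPM with DEL-1-Fc. The groups did not overlap, and its log2 fold change of -0.22 did not pass (SE 0.0711, adjusted p = 0.0821). Insig2 and the escort gene Scap had overlapping groups, at -0.14 (-0.08 when DEL-1-Fc replicate 2 was left out) and 0.04.

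**Figure D4:**
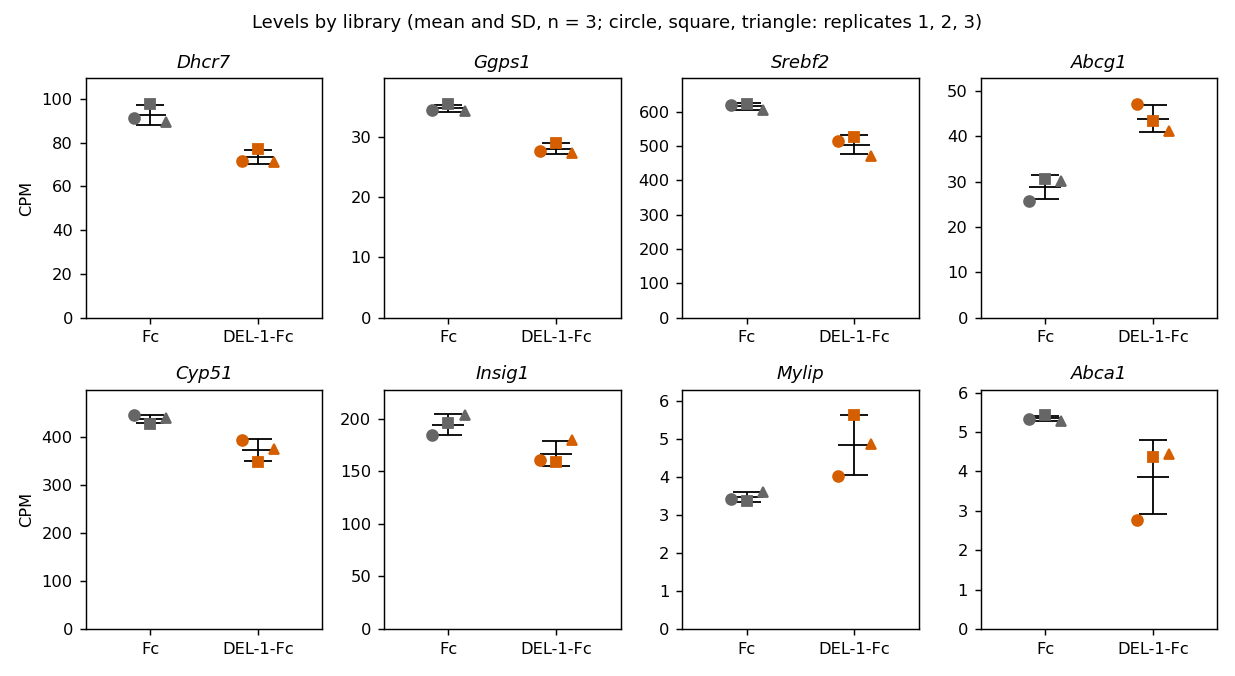
CPM by library for 8 genes chosen after their values were seen, with mean and SD (n = 3) and every axis starting at 0. Dhcr7, Ggps1 and Srebf2 are lower and Abcg1 higher in all DEL-1-Fc libraries, and Abca1 in DEL-1-Fc replicate 1 is at 2.77 CPM against 4.37 and 4.44 in the other replicates.

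The promoters of the 3 genes that fell are shown with that of Hmgcs1, a classic SREBP target that was not called. RefSeq windows (GRCm38.p6, 250 bases before to 50 after a start) were given for 25 of the 30 genes, as 33 windows. Only the longest stretch before the start that touches no GENCODE M21 exon is printed, in the gene's direction: Hmgcs1 at chr13:119690101-119690350 on the plus strand, Srebf2 at chr15:82147019-82147180 on the plus strand, Ggps1 at chr13:14063490-14063603 on the minus strand, and the first of the 3 Dhcr7 windows at chr7:143822917-143823144 on the plus strand. Capitals mark a match to the NF-Y box CCAAT, which reads as ATTGG when it lies on the other strand. They also mark a match, on either strand, to TCACNCCA, which is the sterol regulatory element without its last base. Matches outside the printed stretch are not shown. The whole windows held 4 CCAAT matches for Hmgcs1, 1 for Srebf2 and 3 for Ggps1. For Dhcr7, the first and second windows held 0 and the third held 2.
Hmgcs1: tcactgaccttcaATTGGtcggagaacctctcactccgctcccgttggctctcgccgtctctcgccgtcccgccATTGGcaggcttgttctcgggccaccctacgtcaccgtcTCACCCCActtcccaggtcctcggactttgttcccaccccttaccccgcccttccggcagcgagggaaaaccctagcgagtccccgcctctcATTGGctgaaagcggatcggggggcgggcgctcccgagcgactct
Srebf2: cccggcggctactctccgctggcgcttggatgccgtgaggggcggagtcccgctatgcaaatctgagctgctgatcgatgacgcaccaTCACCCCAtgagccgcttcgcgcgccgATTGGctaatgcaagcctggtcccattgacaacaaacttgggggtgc
Ggps1: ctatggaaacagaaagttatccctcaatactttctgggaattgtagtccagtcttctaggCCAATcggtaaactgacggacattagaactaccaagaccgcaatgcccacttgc
Dhcr7: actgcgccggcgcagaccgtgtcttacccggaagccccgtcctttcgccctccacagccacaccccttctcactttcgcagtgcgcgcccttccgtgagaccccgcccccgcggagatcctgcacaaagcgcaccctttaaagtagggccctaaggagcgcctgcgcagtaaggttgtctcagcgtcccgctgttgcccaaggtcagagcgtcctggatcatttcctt
The whole element TCACNCCAC was found in Hmgcs1 alone, beginning at base -137, in 3.03% of the 33 windows, against 1.24% of all 32851 windows. The version without the last base, searched after the Srebf2 promoter had been read and containing every match to the longer one, was in Hmgcs1, Msmo1 and Srebf2 (base -162), or 9.09% against 4.36%. CCAAT was in 66.7% of the windows against 37.4% of all, and the Sp1 box GGGCGG in 78.8% against 35.7%. The E-box CACGTG was in 21.2% against 7.15%, and all were searched on both strands. The 32851 windows were not limited to genes expressed in these cells, as the sterol genes are. Some sterol genes also count by several windows, so these shares have unlike backgrounds and were not tested. Letters shown here are matches in a window, and binding was not measured.

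Of the 3 genes of uptake control, transport and storage, 0 were called, against 12.6% of all genes kept. Mylip, a ubiquitin ligase that lowers lipoprotein receptors at the cell surface and is an LXR target, measured 3.42, 3.36 and 3.61 CPM in the Fc libraries, against 4.02, 5.61 and 4.86 CPM with DEL-1-Fc. All DEL-1-Fc libraries were higher, replicate 1 the least, and the log2 fold change of 0.48 narrowly missed (SE 0.143, adjusted p = 0.0603). Without DEL-1-Fc replicate 1 it was 0.60 and passed (adjusted p = 0.00636), where 3003 genes were called, against 1884 with all libraries. Mylip did not pass when any other library was left out (adjusted p of 0.138 to 0.195). The sterol carrier gene Stard4 and Soat1, which esterifies cholesterol for storage, had overlapping groups at -0.02 and 0.04.

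Among the 3 LXR and efflux genes, 1 was higher and 2 were not called. That 1 call is 33.3% of this short list, against 12.6% of all genes kept. Abcg1, an ABC half-transporter that moves cholesterol out of cells, lies at chr17:31057675-31117988 on the plus strand (ENSMUSG00000024030). It measured 25.8, 30.5 and 30.2 CPM in the Fc libraries, against 47.1, 43.4 and 41.2 CPM with DEL-1-Fc. Every DEL-1-Fc library was far above every Fc library. Abcg1 rose 1.52-fold (log2 fold change 0.60, SE 0.0859, adjusted p = 0.00229), and it was called under all 17 alternatives tried, with log2 fold changes of 0.53 to 0.65. The other cholesterol pump gene, Abca1, was not called, at 5.34, 5.42 and 5.28 CPM in the Fc libraries, against 2.77, 4.37 and 4.44 CPM with DEL-1-Fc. Its DEL-1-Fc libraries were all lower, replicate 1 by far the most, and the log2 fold change of -0.46 did not pass (SE 0.176, adjusted p = 0.129). Leaving out replicate 1 gave -0.28, which did not pass either (SE 0.104, adjusted p = 0.09). The difference between the pumps was not tested. Nr1h2, which encodes an LXR, measured 118 to 126 CPM in Fc and 120 to 138 CPM in DEL-1-Fc, with overlapping groups (log2 fold change 0.07).

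**Figure D5:**
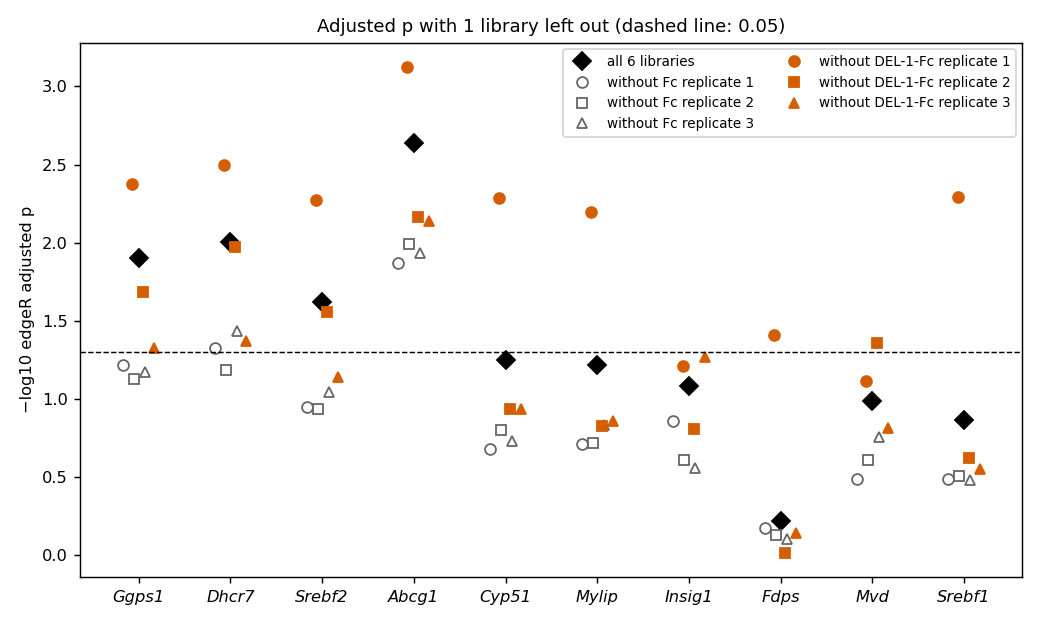
edgeR adjusted p, as −log10, with all 6 libraries (diamonds) and with 1 library left out (open symbols for Fc, filled for DEL-1-Fc), for 10 genes chosen after their values were seen. The dashed line is the threshold of 0.05, and only Abcg1 lies above it in every case.

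Outside the 30 genes, 85 others of the pathway were tested, with a median log2 fold change of -0.08. Of these, 6 were higher (7.06%, against 6.4% of all genes) and 11 lower (12.9%, against 6.22%). The lists were chosen with earlier results of these data known, so the shares here and below are descriptions and were not tested. The 13 genes of SREBP processing and sterol sensing had 0 called, at a median of -0.12. The nearest were Pgrmc2 (log2 fold change -0.23, adjusted p = 0.0545), the ubiquitin ligase genes Rnf145 (0.17, 0.0709) and Rnf139 (-0.15, 0.157). Of 11 other genes of sterol synthesis, Idi2, another isopentenyl diphosphate isomerase gene, rose (0.61, adjusted p = 0.00118) and Cyb5r3, an electron donor for sterol enzymes, fell (-0.23, 0.0484), while Cyb5b did not pass (-0.18, 0.0875). Idi2 shares 31.8% of its 31-base words with other genes. Of 14 genes that use isoprenoids, 0 were called, and the nearest were the farnesyltransferase subunit Fntb (0.24, 0.0678), Nus1 (-0.14, 0.157) and Icmt (-0.11, 0.255).

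Of 10 tested genes listed as lipogenic targets of Srebf1, 3 fell (30%, against 6.22% of all genes) and 1 rose (10%, against 6.4%). Their median log2 fold change was -0.22. The gene that rose was Elovl6 (0.33, adjusted p = 0.0125), while Fasn (-0.12, 0.308) and Acaca (0.02, 0.87) were not called. Those that fell were 3 desaturase genes. Fads2, a desaturase of polyunsaturated fatty acids, measured 55.4, 58.1 and 53.5 CPM in the Fc libraries, against 23.2, 23.6 and 23 CPM with DEL-1-Fc (log2 fold change -1.26, SE 0.0628, adjusted p = 3.76e-05). Scd1, a stearoyl-CoA desaturase, measured 240, 245 and 239 CPM in the Fc libraries, against 91.8, 107 and 117 CPM with DEL-1-Fc (-1.19, SE 0.0878, adjusted p = 0.000103). Its relative Scd2 fell as well (-0.75, adjusted p = 0.00096). The groups did not overlap for any of these desaturase genes, and their absolute log2 fold changes were larger than those of the 30 sterol genes. The list of 13 LXR partners and targets also holds Mylip and Srebf1. Of these 13 genes, 2 rose (15.4%, against 6.4% of all genes) and 0 fell (against 6.22%). The list had no single direction, with 6 log2 fold changes above 0, 7 below 0 and a median of -0.04. Every DEL-1-Fc library lay above every Fc library in 5 of these genes, and below in 3. Over all genes such separation was seen in 17.3% upward and 17.5% downward. The genes that rose were Smpdl3a and Arl4c. Smpdl3a, a sphingomyelinase-like gene, was at 7.10 to 7.65 CPM in Fc and 11.3 to 12.8 in DEL-1-Fc (0.71, adjusted p = 0.00156). Arl4c was at 13.0 to 15.4 CPM in Fc and 20.8 to 24.1 in DEL-1-Fc (0.69, adjusted p = 0.00174).

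Of 20 genes of lipoprotein and sterol trafficking, 5 fell (25%, against 6.22% of all genes) and 2 rose (10%, against 6.4%). Their median log2 fold change was -0.06. The scavenger and lipoprotein receptor gene Lrp1 measured 6.47 to 6.81 CPM in Fc and 2.41 to 3.54 in DEL-1-Fc (log2 fold change -1.17, adjusted p = 0.00135). The lipoprotein receptor gene Vldlr was close to 0, at 0.529 to 1.21 CPM in Fc and 0.0305 to 0.159 in DEL-1-Fc (-2.64, SE 0.481, adjusted p = 0.00781). Its counts with DEL-1-Fc were only 1, 9 and 9, each under the filter's minimum count of 10. The Fc counts were 30, 74 and 35, so Vldlr passed the low-count filter through the Fc libraries alone. The size of its fall is therefore uncertain, and Vldlr is among the 5 genes counted as lower. Gramd1b, which carries cholesterol from the plasma membrane to the endoplasmic reticulum, was at 473 to 554 CPM in Fc and 313 to 389 in DEL-1-Fc (-0.50, adjusted p = 0.0108). Of 6 tested genes of sterol hydroxylation, sulfation and storage, 2 fell (33.3%, against 6.22% of all genes). They were Ch25h, which makes an oxysterol that restrains SREBP, at 3.52 to 3.82 CPM in Fc and 1.04 to 1.86 in DEL-1-Fc (-1.42, adjusted p = 0.00316), and Soat2 (-0.71, adjusted p = 0.0357). Sult2b1 in that list did not pass (0.28, adjusted p = 0.208).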

How the data were processed

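The authors deposited 1 file of raw counts of reads per gene for each of the 6 libraries, made with STAR (version not stated) and HTSeq 0.6.0 on GRCm38 (mm10), per the submitters' processing notes. The annotation, the strand setting and the handling of multi-mapping reads were, for these files, not given in the sources used here. Groups came from the treatment labels. Counts were tested with edgeR 4.0.16 (R 4.3.3): filterByExpr (minimum count 10, minimum total 15), TMM, robust quasi-likelihood test of DEL-1-Fc against Fc, Benjamini-Hochberg adjustment over all 14928 genes kept, calls at 0.05. CPM uses TMM-scaled library sizes. The SE was taken as |log2 fold change|/√F, with F the quasi-likelihood statistic. Exon lengths, symbols and shared 31-base words came from GENCODE M21, which matched 37607 of 39179 identifiers and 150 of 152 listed symbols. Library totals were 33364166 to 61967687 counts, so a count of 0 allows up to 3 counts (0.0490 to 0.0914 CPM), for counting error only. The chi-square between replicates, over its degrees of freedom, was 20.1 or more, so no library is a copy of another.

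The sterol genes and the lists were chosen with earlier results of these data known. All 30 genes were named, and of each list up to 3 tested genes with the smallest p. Elovl6, Fasn and Acaca were named besides these. Alternatives were DESeq2 1.42.0, limma-voom (limma 3.58.1), other scaling factors (RLE, upper quartile, none), other filters (none, or 5 CPM in 3 libraries), no robust dispersion, thinning to the smallest library, the replicate number as a block and each library left out. Removing each library's length trend was added after seeing the data. On simulated data the fit recovered known changes. False calls stayed within the adjusted threshold where genes followed the dispersion trend, but exceeded it where each gene kept its own estimated dispersion, so calls may be liberal. A marker gene of the lists is not reported here.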

Additional observations from a re-analysis of the deposited data

How the results depend on the processing

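Across 17 alternatives, 509 values of single sterol genes were recomputed. Of these, 490 stayed on the same side of the threshold, with the same direction for called genes. There were 8 lost calls, 11 gained calls and 0 reversals of a called gene. Some genes not called did change sign, such as Pmvk (log2 fold change -0.08 to 0.17) and Tm7sf2 (-0.13 to 0.03). With 1 library left out, 901 to 3003 genes were called overall (1884 with all libraries), 1 to 2 sterol genes were higher (1 with all) and 0 to 6 lower (3 with all). DESeq2 called more genes overall (2429) and 2 sterol genes higher and 5 lower, adding Cyp51, Insig1 and Mylip. Removing the length trend also called more overall (2281) and 5 sterol genes lower, adding Cyp51 and Insig1, and the filter of 5 CPM added Cyp51 and left out Mylip. The cause was not tested, except that leaving out a library leaves fewer libraries. The median log2 fold change of the sterol genes stayed between -0.07 and 0.00. With library sizes alone, 59.8% of all calls were higher against 50.7% with TMM, and the median of all genes was 0.04 against 0.01. With the replicate block, 1510 genes were called, among them the same 4 sterol genes. Same-numbered libraries deviated together with correlations of 0.016, 0.088 and 0.042. DEL-1-Fc replicates 2 and 3 but not 1 matched the Fc library of their own number best. With 3 libraries per group, these values cannot decide whether the numbers pair the libraries. Thinned to the smallest library, 1715 genes were called, among them the same 4 sterol genes. With 3 libraries against 3, an exact permutation test could not go below 0.1.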
